A study of Homo sapiens with 6 samples.

Results

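The genes described here are 8 transcription factors of the adrenergic state of neuroblastoma: PHOX2A, HAND2, GATA2, GATA3, ISL1, TFAP2B, TBX2 and MYCN. They were chosen by name, and all 8 were present among the 32862 genes of the table. Poly(A) RNA was sequenced from SH-SY5Y, an established line of human neuroblastoma that lacks amplification of MYCN. There were 3 libraries from wild-type (WT) cells and 3 from cells labelled OTULIN KO, in which CRISPR-Cas9 was used against OTULIN, the deubiquitinase of linear ubiquitin chains. All 6 were untreated, grown in the same medium and labelled as batch 1. The labels do not say whether the KO cells are a single clone, nor whether replicates came from cultures grown apart. A p-value here therefore covers the scatter of these 6 libraries alone, and that scatter may be technical.

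Neuroblastoma arises from the sympathoadrenal branch of the neural crest. Its adrenergic state is held by a core regulatory circuit, a group of transcription factors that bind the enhancers of their own genes and of each other. PHOX2A and ISL1 are homeodomain proteins, HAND2 is a basic helix-loop-helix factor, GATA2 and GATA3 are zinc-finger factors, TFAP2B belongs to the AP-2 family and TBX2 is a T-box factor. MYCN, a basic helix-loop-helix leucine zipper protein that binds DNA with MAX, drives growth in high-risk tumours and works through the same enhancers. Together the circuit turns on noradrenergic genes such as DBH.

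In WT libraries 6 of the 8 factors were among the most abundant RNAs, with mean levels from 104 to 241 FPKM (fragments scaled to transcript length and library size). In the libraries labelled OTULIN KO all 8 were called lower, but 88.0% of all tested genes were too. PHOX2A, GATA3 and TFAP2B were listed at 0 in all KO libraries. HAND2, GATA2, ISL1 and TBX2 were counted in every KO library, at 2.09-fold to 6.63-fold lower shares of the counts, and MYCN in 1 of 3. The ratio of HAND2 to ISL1 within a library overlapped between KO and WT, and GATA2 was lower in KO relative to the other 3. Ratios that differed without overlap were common among all gene pairs.

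The groups differed greatly in depth, which bears on every KO value. The KO libraries held 725827 to 862932 counts and the WT libraries 61772795 to 64352333, a 78.5-fold difference in the group totals. Between 2306 and 2567 genes had a count in a KO library, and between 27453 and 27958 in a WT library. CPM values are counts scaled to the library total, and 3 counts make 3.48 to 4.13 CPM in a KO library but 0.0466 to 0.0486 in a WT library. OTULIN, the targeted gene, had 0 counts in each KO library against 1682, 2101 and 2155 in WT. This does not check the labels, because 71.3% of tested genes were also at 0 in all 3 KO libraries. ACTB, the cytoskeletal actin that every cell uses, had 5, 7 and 21 counts in KO against 395817, 377888 and 352387 in WT. A plain thinning of WT was not tested as a source of the KO values, and ACTB alone cannot decide it. Whether the KO values come from a complete quantification, processed like the WT values, is not given in the sources used here, and a 0 in KO may not mean that the RNA was absent. Neither depth nor such a difference in processing can be told apart from the genotype label in these 6 libraries, and every KO value and fold below carries that limit.

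Promoter windows of RefSeq (GRCh38.p14, 250 bases before to 50 after the start site) were found for 7 of the 8 factors and searched on both strands for short motifs of the members' own families. The hexamers AGATAA and TGATAA are forms of the GATA motif, TAATTA of the homeobox motif, and GCCNNNGGC of the AP-2 motif. HAND2 and ISL1, the pair whose ratios overlapped between KO and WT, are shown because each window held both GATA hexamers. GATA2 and GATA3, of which only GATA2 was counted in KO, are shown because each held the AP-2 motif. Motif matches are in capitals, and each window is written 5′ to 3′ on the gene's strand.

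HAND2, chr4:173530180-173530479, minus strand: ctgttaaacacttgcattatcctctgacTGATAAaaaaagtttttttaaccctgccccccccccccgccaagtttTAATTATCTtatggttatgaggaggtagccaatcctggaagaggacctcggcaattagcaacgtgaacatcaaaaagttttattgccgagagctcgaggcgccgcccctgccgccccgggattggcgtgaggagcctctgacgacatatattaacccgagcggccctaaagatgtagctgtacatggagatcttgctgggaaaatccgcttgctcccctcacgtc

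ISL1, chr5:51383198-51383497, plus strand: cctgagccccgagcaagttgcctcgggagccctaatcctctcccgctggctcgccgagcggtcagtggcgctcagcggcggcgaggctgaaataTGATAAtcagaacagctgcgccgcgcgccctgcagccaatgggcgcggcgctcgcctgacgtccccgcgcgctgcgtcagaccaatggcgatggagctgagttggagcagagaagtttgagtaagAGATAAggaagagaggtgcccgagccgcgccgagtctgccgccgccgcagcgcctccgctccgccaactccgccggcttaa

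GATA2, chr3:128493152-128493451, minus strand: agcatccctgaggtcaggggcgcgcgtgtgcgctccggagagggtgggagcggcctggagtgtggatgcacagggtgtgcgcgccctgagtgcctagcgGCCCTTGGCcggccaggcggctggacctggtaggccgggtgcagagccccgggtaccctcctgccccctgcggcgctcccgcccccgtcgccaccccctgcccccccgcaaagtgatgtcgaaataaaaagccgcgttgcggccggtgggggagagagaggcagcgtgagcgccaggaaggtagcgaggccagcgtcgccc

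GATA3, chr10:8045083-8045382, plus strand: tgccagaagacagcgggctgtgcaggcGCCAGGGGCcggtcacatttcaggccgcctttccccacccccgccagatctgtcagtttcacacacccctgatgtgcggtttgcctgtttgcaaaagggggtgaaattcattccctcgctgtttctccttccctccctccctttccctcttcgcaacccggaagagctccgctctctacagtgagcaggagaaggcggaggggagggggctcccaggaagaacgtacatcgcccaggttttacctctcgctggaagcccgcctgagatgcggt

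In the HAND2 window AGATAA lay on the opposite strand and overlapped TAATTA, in the run TAATTATCT. Of 35116 windows of this length, 10.3% held AGATAA, 7.53% TGATAA, 4.84% TAATTA and 23.2% GCCNNNGGC. Of the 7 members' windows, 2 held AGATAA, 2 TGATAA, 1 TAATTA and 2 GCCNNNGGC. The E-box CATCTG was found in TFAP2B and MYCN (14.7% of all windows), the T-box hexamer AGGTGT in PHOX2A (11.4%) and the MYC E-box CACGTG in none of the 7 (7.26%). These are matches of letters in 1 short window per gene, not sites. The windows varied in base composition, from 43.0% G and C in TFAP2B to 73.7% in PHOX2A, against a median of 58.7% over all windows.

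Among WT cells the 8 factors fell into 4 steps of abundance per length. HAND2, which specifies sympathetic neurons, was highest with 252, 239 and 231 FPKM, or 241 ± 11 (SD, n = 3), and ranked 96 among all genes. PHOX2A, an activator of noradrenergic genes, followed with 257, 220 and 208 FPKM, 228 ± 26, at rank 101. GATA2, better known from blood stem cells and also required in sympathetic precursors, had 250, 217 and 209 FPKM, 225 ± 22, at rank 103. The values of these 3 genes overlapped between neighbours, so their order is not set by these data (exact two-sided permutation test, p = 0.5 for HAND2 against PHOX2A and 0.8 for PHOX2A against GATA2). For all neighbours in this order the test was unpaired. It treated the values of both genes as independent, although they come from the same 3 libraries.

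The next step also held 3 genes. GATA3, which acts downstream in noradrenergic differentiation, had 127, 110 and 104 FPKM, 114 ± 12. TFAP2B, a factor of neural crest derivatives, had 107, 108 and 105, 107 ± 1.2, and was the steadiest of the 8. ISL1, a LIM homeodomain factor of sensory and sympathetic neurons, had 95.9, 109 and 106, 104 ± 6.8. Their values overlapped as well (exact two-sided permutation p = 0.5 and 0.8 for the neighbouring pairs). GATA2 was 1.98-fold above GATA3 with no overlap. The unpaired exact permutation p was 0.1, the smallest that 3 against 3 allows, and 0.23 after Benjamini-Hochberg adjustment over the 7 neighbouring pairs.

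TBX2 and MYCN were clearly apart from the others in WT. TBX2, a repressor that controls the cell cycle, had 36.4, 34.7 and 34.5 FPKM, 35.2 ± 1.0, 2.94-fold below ISL1. MYCN had 8.96, 8.76 and 8.18 FPKM, 8.63 ± 0.41, 4.08-fold below TBX2, and ranked 4720. Neither step overlapped (exact permutation p = 0.1 for each, the smallest possible, 0.23 after adjustment). MYCN still exceeded 85.6% of the 32795 genes with a WT count, and each of the other 7 factors exceeded at least 97.1%.

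**Figure D1:**
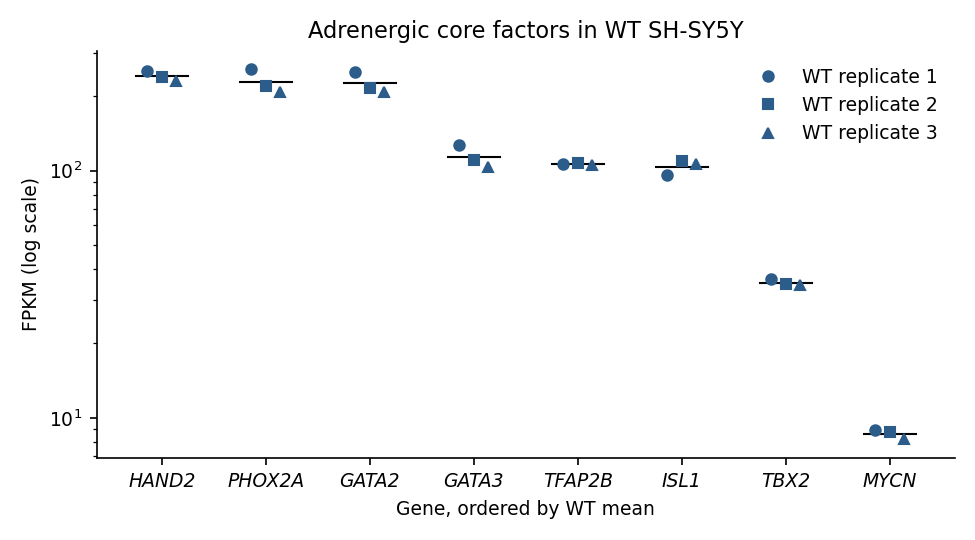
FPKM of the 8 factors in the 3 WT libraries on a log axis, with 1 symbol per library and a line at the mean, ordered by mean. HAND2, PHOX2A and GATA2 lie together between 208 and 257, GATA3, TFAP2B and ISL1 between 95.9 and 127, TBX2 near 35.2 and MYCN near 8.63.

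The factors did not vary in the same way between WT libraries. WT replicate 1 gave the highest FPKM for 6 of the 8, all but ISL1 and TFAP2B, while it was the highest for 37.9% of tested genes. PHOX2A, GATA3 and GATA2 had the widest ranges, with the highest library 1.24, 1.23 and 1.20 times the lowest. TFAP2B had the narrowest, at 1.02 times. The coefficient of variation had a median of 5.65% over the 8 factors and 6.52% over all tested genes.

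Relatives of the members showed which branch of each family these cells express. In WT HAND1 was at 63.8 ± 2.0 FPKM (SD, n = 3) and TBX3 at 88.4 ± 1.5. MYC, at 19.8 ± 0.82 FPKM, was above MYCN, and MYCL was at 1.06 ± 0.13. The cardiac and gut factor GATA4 was at 8.39 ± 0.20 and ISL2 at 5.00 ± 0.94 FPKM. A further 9 relatives (TFAP2E, TBX1, TBX4, GATA1, TFAP2C, TFAP2D, GATA5, TFAP2A and GATA6) each had a mean below 1 FPKM in WT. TBX3 thus exceeded TBX2 per length, and TFAP2B was the only AP-2 family gene above 1 FPKM among the 5 measured.

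Most noradrenergic genes of the list were present in WT. DBH, which makes noradrenaline, was at 663 ± 47 FPKM, CHGA at 220 ± 30 and CYB561 at 60.5 ± 2.7 (SD, n = 3). TH, the first enzyme of catecholamine synthesis and a defining marker of the lineage, was at 0.503 ± 0.090 FPKM, and SLC18A2, a vesicular monoamine transporter, was lower still at 0.147 ± 0.030. All 17 genes of this list found in the table had 0 counts in every KO library. The 14 of them tested were all called lower (edgeR, adjusted p under 0.05), where 88.0% of all tested genes were lower and 71.3% at 0 in all KO libraries. SLC18A1 was among those above 0 with quantile normalization. At their WT shares 4763 counts of DBH and 1742 of CHGA would have been seen over the 3 KO libraries, but only 4.30 of TH, which is near the floor.

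Antisense transcripts at the member loci were counted in WT and not in KO. HAND2-AS1, which runs from the opposite strand of HAND2, had 33555, 39907 and 38350 counts in WT. GATA3-AS1 had 2586 to 2608, GATA2-AS1 1719 to 2047, TBX2-AS1 853 to 1007 and MYCNOS 34 to 54. All 5 were at 0 in each KO library, including those at the loci of HAND2, GATA2 and TBX2, whose sense genes were counted there. The 4 tested were called lower, beside 88.0% of all tested genes lower and 71.3% at 0 in all KO libraries, and GATA2-AS1 and TBX2-AS1 were slightly above 0 with quantile normalization. The strandedness of counting is not given in the sources used here, and each of these genes overlaps its partner, so some reads of a pair may be assigned to the wrong member.

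The 3 factors without KO counts were far from the detection limit in WT. PHOX2A (ENSG00000165462, chromosome 11, 72239077 to 72244176, minus strand, hg38) had 31079, 27587 and 24975 counts in WT and 0, 0 and 0 in KO. At its WT share of the counts, 360, 383 and 322 would have been seen in the KO libraries. Taking 3 counts summed over the KO libraries as a floor (1.251 CPM), its 444 ± 49 CPM in WT (SD, n = 3) were at least 355-fold higher.

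GATA3 (ENSG00000107485, plus strand of chromosome 10, 8045378 to 8074890) showed the same pattern. It had 29318, 26243 and 23741 counts in WT and 0 in each KO library, where 306 to 363 would have been seen at the WT share. It was at least 337-fold lower in KO.

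TFAP2B (ENSG00000008196, plus strand of chromosome 6, 50818723 to 50847619) had 44524, 46500 and 43704 counts in WT and 0 in each KO library, where 519 to 617 would have been seen. It was at least 572-fold lower. For each of these 3 genes edgeR's quasi-likelihood test gave an adjusted p of at most 1.3e-05. Their fitted log2 changes depend on the prior count and are not given as sizes. Floors and intervals here cover counting error only.

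Such zeros were not particular to these genes. Among genes with a WT mean FPKM up to 25% above that of PHOX2A, or below it by the same factor, 16 of 51 were also at 0 in all KO libraries (31.4%). For GATA3 it was 57 of 128 (44.5%) and for TFAP2B 60 of 138 (43.5%).

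HAND2 (ENSG00000164107, chromosome 4, 173524969 to 173530229, minus strand) had the most KO counts of the 8. It had 267, 228 and 206 counts in KO, where 765, 816 and 686 would have been seen at the WT share, and 61577, 60360 and 56132 in WT. In CPM, HAND2 was at 330, 264 and 284 in KO and 990, 938 and 909 in WT. The groups did not overlap, and HAND2 was 3.23-fold lower in KO (95% counting interval on the pooled KO counts, 3.004 to 3.49).

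ISL1 (ENSG00000016082, plus strand of chromosome 5, 51383448 to 51394730) had 86, 74 and 87 counts in KO and 18306, 21516 and 20172 in WT. This gave 106, 85.8 and 120 CPM in KO and 294, 334 and 327 in WT. All KO values lay below all WT values, and ISL1 was 3.06-fold lower (interval 2.73 to 3.52), close to HAND2.

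GATA2 (ENSG00000179348, chromosome 3, 128479427 to 128493201, minus strand) had 119, 182 and 137 counts in KO and 83345, 74789 and 69189 in WT. This gave 147, 211 and 189 CPM in KO and 1340, 1162 and 1120 in WT. GATA2 was thus the most counted of the 8 in WT and came after HAND2 in KO, 6.63-fold lower (interval 6.02 to 7.28).

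TBX2 (ENSG00000121068, plus strand of chromosome 17, 61399843 to 61409466) had 72, 104 and 91 counts in KO and 14992, 14795 and 14167 in WT. This gave 88.9, 121 and 125 CPM in KO and 241, 230 and 229 in WT. TBX2 had the smallest difference of the 8, 2.09-fold lower (interval 1.86 to 2.37), again without overlap.

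MYCN (ENSG00000134323, plus strand of chromosome 2, 15940550 to 15947007) had 0, 10 and 0 counts in KO and 1674, 1694 and 1521 in WT. At its WT share 18.8 to 22.4 counts would have been seen in each KO library. Its KO level rests on KO replicate 2, at 11.6 CPM against 26.9, 26.3 and 24.6 in WT, and without that library MYCN was at 0 in KO. The fold over the mean CPM was 6.72 (interval 3.38 to 13.0).

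**Figure D2:**
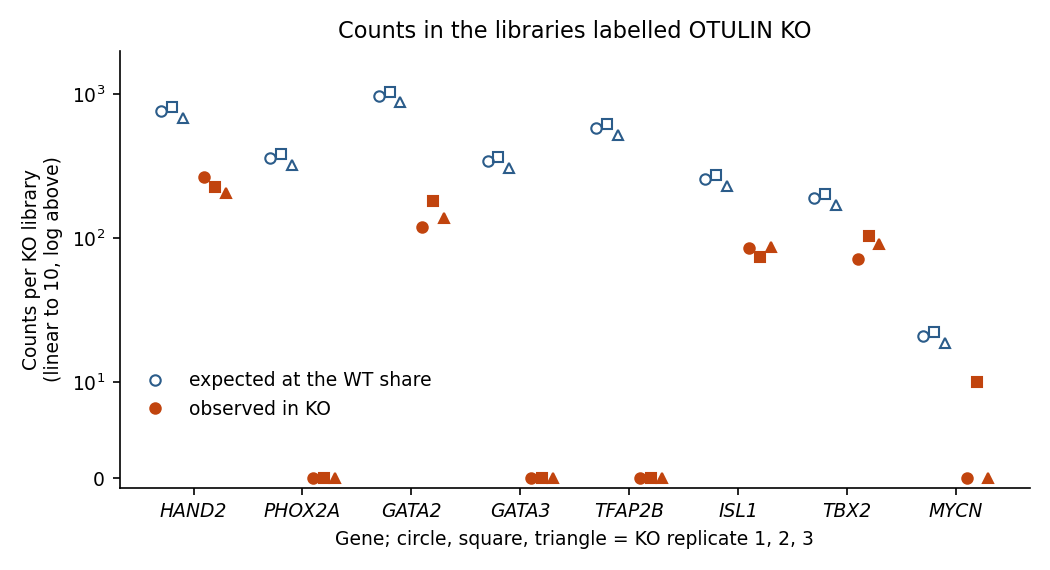
Counts of each factor in the 3 KO libraries (filled) beside the count its WT share of the reads would give in the same library (open), on an axis that is linear to 10 and logarithmic above. PHOX2A, GATA3 and TFAP2B lie at 0 where 306 to 617 counts would be seen, and HAND2, GATA2, ISL1 and TBX2 lie below the open symbols in each library.

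All 8 factors passed the test for lower expression in KO, against a background of 88.0% of the 10820 tested genes (edgeR quasi-likelihood test with TMM scaling, Benjamini-Hochberg adjusted p under 0.05). The log2 change was -2.09 (SE 0.10) for HAND2, -3.11 (SE 0.20) for GATA2, -2.02 (SE 0.12) for ISL1, -1.45 (SE 0.17) for TBX2 and -3.03 (SE 0.68) for MYCN. The edgeR adjusted p was at most 1.4e-05 for the first 3, 0.00013 for TBX2 and 0.0041 for MYCN. The median log2 change of the 8 was -3.07, beside the lower -12.42 over all tested genes. With genes at 0 in KO set to the floor of 3 summed counts these medians were -3.07 and -4.61. For each factor the exact two-sided permutation test on CPM gave p = 0.1, the smallest that 3 against 3 allows. By overlap of CPM the shares were the same, with KO below WT and no overlap for all 8 factors and for 88.0% of tested genes, and KO above WT for none of the 8 and 8.15% of tested genes. Such counts, close to the background, are no result about these factors. The 8 together took 0.0672%, 0.0693% and 0.0718% of the counts in KO and 0.458%, 0.425% and 0.411% in WT. With quantile normalization TBX2 lost its call (log2 change -0.20, adjusted p = 0.17, limma) and MYCN turned to 1.14 (adjusted p = 0.28, limma). In bulk RNA, fewer cells of a type and less RNA per cell cannot be told apart.

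Being counted in all 3 KO libraries was less common among all genes than among the 8 factors, at 13.9% of tested genes against 4 of 8. Among genes with a like WT level the share was 24.5% for HAND2 (12 of 49), 22.0% for GATA2 (11 of 50), 20.7% for ISL1 (30 of 145) and 14.6% for TBX2 (79 of 542). With 8 genes this is a description and no test was made. The longest coding transcripts of the 4 counted factors had 2459 to 3367 bases and 45.6% to 66.6% G and C in a GENCODE annotation of the same build. Those of PHOX2A, GATA3 and TFAP2B had 1699 to 5773 bases and 48.3% to 66.5%, and both ranges overlapped.

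The size of the change in the 4 counted factors depended on the scaling. Fold differences of mean CPM became 6.26 for HAND2, 12.8 for GATA2, 5.98 for ISL1 and 4.05 for TBX2 with median-ratio scaling. With totals that leave out the 10 most abundant genes of each library they became 2.09, 4.26, 2.001 and 1.35. MYCN, 6.72-fold lower with totals, was 11.8-fold and 3.90-fold lower with these scalings. For comparison, 1476 tested genes had a count in all 6 libraries. Their median log2 change stood at 0.54 for TMM, at -0.02 for median-ratio scaling and at 0.93 for library totals alone. Relative to that median, with TMM factors, HAND2 was at -2.63, GATA2 at -3.65, ISL1 at -2.56 and TBX2 at -1.99. Scalings with 1 factor per library move all genes alike and leave these distances nearly as they are by construction. Quantile normalization does not, and with it the median was 3.68 and the distances were -5.72, -6.62, -4.62 and -3.88 for HAND2, GATA2, ISL1 and TBX2. Of these 1476 genes 34.2% were called lower, and with TMM factors 8.67% had a lower change than GATA2, 14.4% than HAND2, 14.97% than ISL1 and 20.3% than TBX2. The 1476 were selected by their KO counts, and the 71.3% of tested genes at 0 in all KO libraries are left out. These shares and distances therefore hold among counted genes only and do not place the factors among all tested genes.

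**Figure D3:**
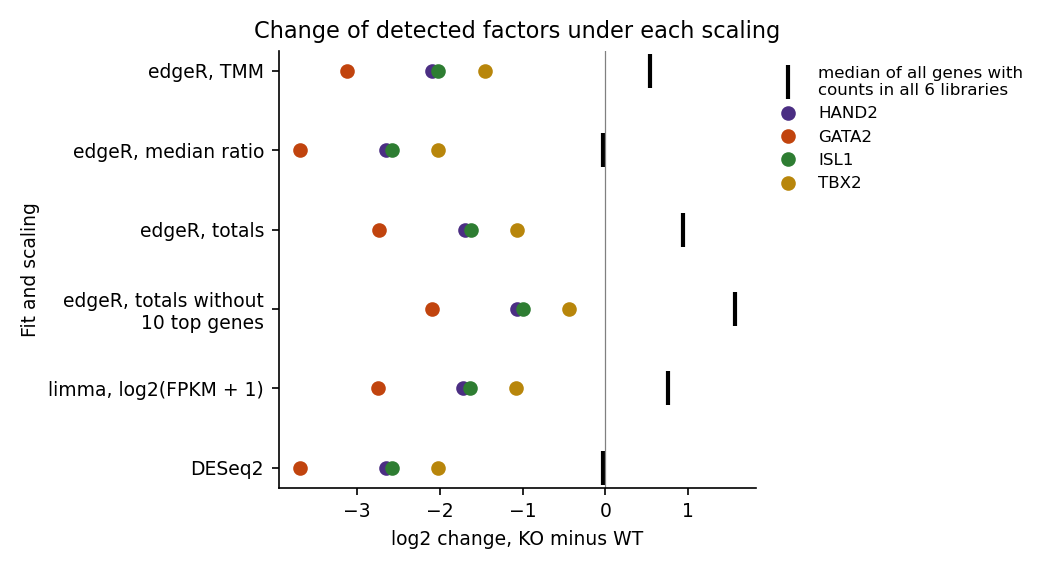
Log2 change between KO and WT of the 4 counted factors under edgeR with TMM, median-ratio, total and reduced-total scaling, limma on log2(FPKM + 1) and DESeq2, with a black bar at the median of all tested genes counted in every library. In each of these 6 the order from lowest to highest is GATA2, HAND2, ISL1, TBX2, and quantile normalization and fits without a library are not drawn. Without KO replicate 3, ISL1 was at -2.10 and HAND2 at -2.04.

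Ratios between factors inside a library do not change when a library is scaled by 1 factor. Losses that differ from gene to gene in the KO libraries would change them, and this was not tested. GATA2 had 1.35, 1.24 and 1.23 times the counts of HAND2 in WT. In KO it had 0.446, 0.798 and 0.665 times. By counts, which are not scaled to transcript length, the order of the pair thus turned over in all 3 KO libraries. Per length it did not, and HAND2 was above GATA2 in every library. The FPKM in KO were 81.8, 65.3 and 71.3 for HAND2 and 26.7, 38.2 and 34.6 for GATA2. On the log2 scale the ratio of GATA2 to HAND2 counts was lower in KO, by a difference of -1.04. Its SDs were 0.43 in KO and 0.076 in WT (n = 3 each). GATA2 over TBX2 differed most, with 5.17 ± 0.35 in WT and 1.64 ± 0.12 in KO, and GATA2 over ISL1 was 3.82 ± 0.64 and 1.81 ± 0.57 (SD, n = 3).

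HAND2 over ISL1 was the 1 ratio of 6 whose groups overlapped. Over all pairs of the 1476 genes counted in every library, 86.9% of ratios did not overlap between KO and WT, so 5 of 6 is close to the background and is no result about these factors. It was 3.36, 2.81 and 2.78 in WT and 3.10, 3.08 and 2.37 in KO, a log2 difference of -0.07 with SDs of 0.22 in KO and 0.15 in WT (exact two-sided permutation p = 0.8). Relative to TBX2 both were lower in KO, HAND2 at 2.72 ± 0.86 against 4.05 ± 0.077 and ISL1 at 0.954 ± 0.24 against 1.37 ± 0.13. The 5 ratios without overlap had an exact permutation p of 0.1, the smallest possible, or 0.12 after Benjamini-Hochberg adjustment over the 6. In KO replicate 1 HAND2 was at its highest share and GATA2 and TBX2 at their lowest, which spread the KO ratios, and HAND2 over TBX2 there was 3.71 against 2.19 and 2.26 in the others.

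**Figure D4:**
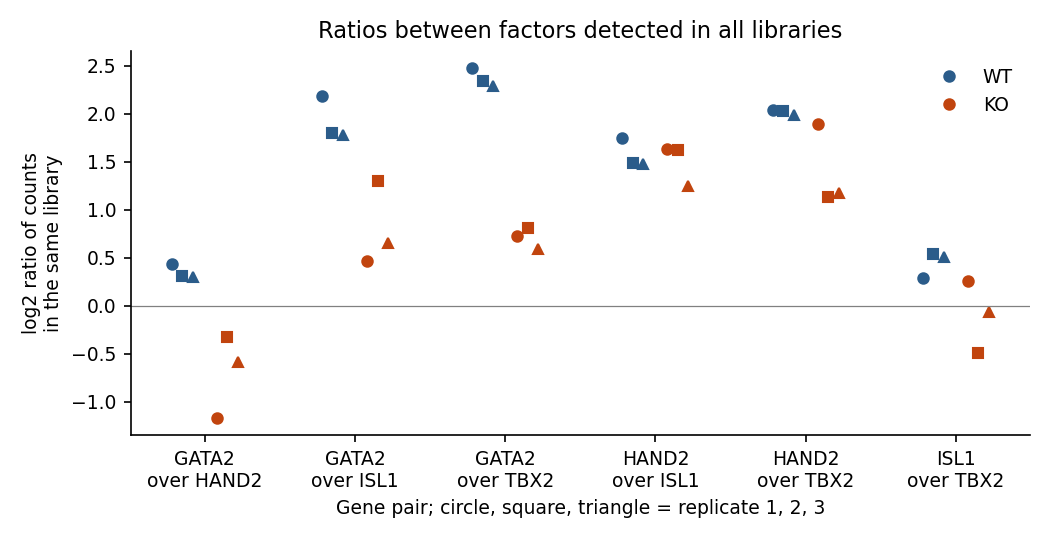
Log2 of the ratio of counts between 2 factors of the same library, for the 6 pairs among GATA2, HAND2, ISL1 and TBX2, with 1 symbol per library. The 3 ratios with GATA2 lie lower in KO without overlap, and the KO and WT values of HAND2 over ISL1 overlap.

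Several relatives of the members had no counts in KO where the member did. HAND1 and TBX3 were at 0 in KO where HAND2 and TBX2 were counted, at least 94.6-fold and 460-fold lower. GATA4 and ISL2 were also at 0, and MYC had 0, 0 and 4 counts. HAND1, TBX3, GATA4, ISL2 and MYC were each called lower (edgeR, adjusted p under 0.05), as were 88.0% of all tested genes, though ISL2 was above 0 with quantile normalization. In the pairs HAND1 and HAND2, GATA2 and GATA3, ISL1 and ISL2, and TBX2 and TBX3, 1 gene had counts in every KO library and the other had none.

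Other factors of the adrenergic state, a list of 25 that includes HAND1 and TBX3, went both ways. Of 22 tested, 16 were lower and 6 higher, with 8 at 0 in all KO libraries, and the median log2 change was -2.13 beside -12.42 over all tested genes, or -4.61 with genes at 0 set to their bound. TLX2, a homeobox factor of neural crest derivatives, was at 83.5 ± 5.3 FPKM in WT and at 0 in KO, at least 205-fold lower. SOX4, a factor of neuronal progenitors, rose 3.25-fold, from 416 to 1350.4 CPM (edgeR adjusted p = 1.3e-05). MEIS1 and PBX3, homeodomain partners that bind DNA together, rose 14.5-fold and 20.3-fold. ZFHX3 was called higher (log2 change 0.43) but was below 0 with median-ratio scaling, and MEIS2 and SATB1, called lower, were above 0 with totals that leave out the 10 most abundant genes. With quantile normalization SATB1, SIX3, KLF7, HEY1 and EYA1, called lower, were above 0 as well. INSM1, a zinc-finger factor of neuroendocrine cells, had 430, 418 and 405 counts in KO and 0, 0 and 12 in the far deeper WT libraries, a higher level in KO (edgeR adjusted p = 1.4e-05). At 0.0207 FPKM in WT, INSM1 passed the filter of 1 FPKM over all 6 libraries only through its KO values. Its call, counted among the 6 higher, was thus favoured by the filter. ZFHX3, MEIS2, SATB1, SIX3, KLF7, HEY1, EYA1 and INSM1 were singled out after their values were seen.

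Of 23 tested partners and cofactors of the members, 7 were higher (30.4%, beside 7.63% of all tested genes), 13 lower (56.5%, beside 88.0%) and 3 not called, and the difference between these shares was not tested. The filter took the mean over all 6 libraries, so a gene low in WT was tested only if it was high in KO. CITED2, 1 of the 7 higher, was such a gene, at 0.471 FPKM in WT. The list shares LMO1, LMO3, PBX3 and TCF4 with the one before. LIM homeodomain factors such as ISL1 work in a complex held by LDB1, with SSBP proteins, and LMO proteins compete for the same adaptor. LDB1 had 875 ± 106 CPM in KO (SD, n = 3), 4.88-fold above its 179 ± 12 in WT. SSBP2, at 2.31 ± 0.24 FPKM in WT, was 41.9-fold higher and LMO1 3.72-fold higher. The edgeR adjusted p for LDB1, SSBP2 and LMO1 with TMM was at most 2.0e-05. Their log2 changes were 1.89, 4.99 and 1.49 with TMM and 1.32, 4.43 and 0.93 with median-ratio scaling. With totals that leave out the 10 most abundant genes they were 2.91, 6.01 and 2.51. The other SSBP genes of the list did not rise in this way. SSBP4, at 22.4 ± 2.7 FPKM in WT, was at 0 in KO, at least 58.0-fold lower. SSBP3, at 20.8 ± 1.9 FPKM in WT, was not called (log2 change 0.07, edgeR adjusted p = 0.75). TCF3, an E protein that pairs with HAND2, was at 48.3 ± 5.0 FPKM in WT and at 0 in KO, at least 268-fold lower. TCF4 and TCF12, the other E proteins of the list, were counted in all 3 KO libraries. TCF4 was 4.02-fold lower in CPM. TCF12 was not called (edgeR adjusted p = 0.27), and its sign varied with the scaling. CITED2, SSBP3, SSBP4, TCF4 and TCF12 were named after their values were seen. The median log2 change of the list was -2.40, or -1.83 with genes at 0 set to their bound.

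The MYC and MAX network had 1 gene higher, 6 lower and 2 not called of 9 tested, beside 7.63% higher and 88.0% lower over all tested genes. MAX, the partner that MYCN needs to bind DNA, had 418, 443 and 475 counts in KO and was 11.2-fold higher in CPM, while MYCN had 10 counts in all. The log2 change of MAX was 3.09 with TMM (edgeR adjusted p = 8.1e-06) and 2.52 with median-ratio scaling. It was 4.10 with totals that leave out the 10 most abundant genes. MYC was 71.7-fold lower on 4 KO counts, all in KO replicate 3, and at 0 in KO without it. MLX was at least 44.9-fold lower, and MNT, a repressor that also pairs with MAX, was 13.6-fold lower on 2, 2 and 1 counts. With quantile normalization MNT, MXD3 and MXD4, all called lower, were above 0. MGA, not called, had 80.4 ± 34 CPM in KO beside 78.7 ± 5.7 in WT, and its sign varied with the scaling, and MXI1 had 0, 0 and 48 counts in KO. The median log2 change of the list was -6.44, or -4.53 with genes at 0 set to their bound.

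**Figure D5:**
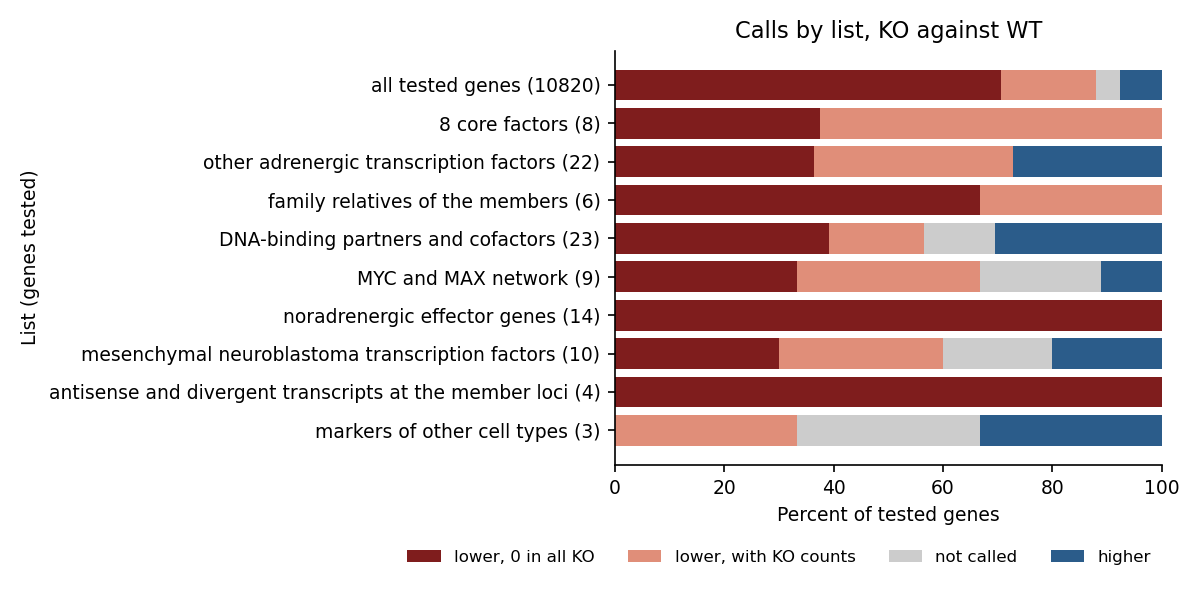
Share of the tested genes of each list that were called lower with 0 counts in all KO libraries, called lower with KO counts, not called, or called higher, with the number tested in parentheses. All 8 core factors were lower, 3 of them at 0, all 14 noradrenergic genes were at 0 in KO, and 7 of 23 partners and cofactors were higher.

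Markers of other cell types were measured beside these genes. Of 17 in the table, 10 had a count in at least 1 KO library, and the sum over the list ranged from 71.6 to 197 CPM among KO libraries and from 60.9 to 89.7 among WT libraries. In KO the counts were mainly of COL1A1 (30, 24 and 57), COL3A1 (14, 11 and 31) and KRT5 (10, 29 and 24). In WT they had 615, 455 and 689, 2917, 3076 and 3186, and 34, 21 and 1042 counts, so KRT5 there rests mainly on WT replicate 3. COL1A1 was called higher, COL3A1 lower and KRT5 not called (edgeR adjusted p = 0.0019, 0.0029 and 0.33). COL1A1, at 0.943 FPKM in WT, passed the filter of 1 FPKM only through its KO values. COL3A1 was above 0 with quantile normalization. LUM, S100B, CD68, SOX10, ALB and GFAP were among those at 0 in KO. Their part in the results above was not tested.

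The genes most like each counted factor were found by the distance of log2(FPKM + 1) over the 6 libraries. TBX2 was nearest to CHD4 (distance 0.39), MCM4 (0.56) and CLTC (0.58). The genes near ISL1 included RPL15 (0.89) and H3-3A (1.10), and those near GATA2 included PFN1 (1.18) and H3-3A (1.82). HAND2 was nearest to HDGF (1.57), CBX1 (1.67) and H3-3A (1.91). H3-3A, a histone H3.3 gene, was thus near HAND2, ISL1 and GATA2, at 128 ± 9.0 FPKM in WT and 48.2 ± 10 in KO (SD, n = 3).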

How the data were processed

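Each gene has 2 deposited values per library. The authors' counts are raw and whole. The authors' FPKM values are named so in the file headers. Build hg38 and the tools HISAT2 2.0.4, StringTie 1.3.4d, cutadapt 1.9 and DESeq2 appear in the submitters' processing notes, with no role or order. Which annotation release was used, and whether counting used strand, is not given in the sources used here. Sample titles gave the genotype groups. Replicates of a group differed by far more than sampling noise (chi-square over its degrees of freedom 15.5 to 41.7), and all 6 were kept as separate libraries.

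Counts were tested with edgeR 4.0.16 (R 4.3.3, glmQLFit and glmQLFTest, TMM factors, total counts as library sizes) on the 10820 genes averaging 1 FPKM or more across all libraries, all 8 members included, with genotype as the only term and a Benjamini-Hochberg threshold of 0.05. Each standard error was taken as |log2 change| divided by the root of the F statistic. The test was tried before use on simulated counts in which most genes did not change. These data differ from that setting, since 88.0% of tested genes were called lower, so the trial does not check the calls made here. Alternatives were other filters, scalings and pseudocounts, limma 3.58.1, DESeq2 1.42.0, a replicate block and leaving out each library. Permutation tests, ratios and figures were made in Python 3.11.15 with scipy 1.17.1, numpy 2.4.6, pandas 2.3.3 and matplotlib 3.10.9.

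The members, gene lists and naming rule were chosen with earlier results of these data known. Named were all members, any family relative or antisense gene, and per list the 3 highest in WT FPKM and the 3 highest in KO CPM among genes counted in all 3 KO libraries. For each member counted in at least 2 KO libraries the 3 nearest genes with a gene symbol were named, leaving out antisense and pseudogene-style names. Some genes that enter the counts over lists are not reported here. Promoter windows are from RefSeq, 1 per gene, nearest to the gene's start in the table's coordinates, and none from chromosome 8 entered the shares.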

Additional observations from a re-analysis of the deposited data

How the results depend on the processing

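HAND2, GATA2 and ISL1 kept their direction and call under all 16 alternatives. PHOX2A, GATA3 and TFAP2B did so under 15, and the exception was the replicate block. TBX2 lost its call with quantile normalization and with the block, and MYCN turned to 1.14 with quantile normalization and lost its call with the block. MYCN was not tested with a mean of at least 5 FPKM. The cause was not tested.

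Median-ratio scaling moved the folds of mean CPM to 6.26 for HAND2, 12.8 for GATA2, 5.98 for ISL1 and 4.05 for TBX2, and leaving the 10 most abundant genes out of the totals moved them to 2.09, 4.26, 2.001 and 1.35. TBX2 had a log2 change of -0.20 with quantile normalization. That normalization gave 4380 lower and 4574 higher calls over all genes, and 38 and 36 over the lists around the members, against 9519, 826, 61 and 15 in the main analysis. A mean of at least 5 FPKM left 3851 lower calls, with fewer genes tested. In CPM, 6 of 7 neighbouring pairs in the WT order did not overlap, against 3 in FPKM.

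With the replicate number as a block, 3 of the 8 members and 289 of all genes were called lower, 452 of all genes higher, and 7 and 9 of the list genes lower and higher. The log2 changes in that fit were -16.80 for PHOX2A, -16.72 for GATA3, -17.48 for TFAP2B, -1.47 for TBX2 and -4.73 for MYCN, with adjusted p from 0.053 to 0.11. Whether same-numbered libraries share a culture or day is not stated. The correlations of their deviations from the group means were 0.044, -0.026 and 0.072 over 1476 genes. KO replicates 1 and 2 each correlated better with a WT library of another number. With 3 libraries per group and few KO counts, such correlations cannot show whether the numbers mark a pairing.

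Leaving out each library in turn gave ranges of -2.15 to -2.02 for HAND2, -3.30 to -2.95 for GATA2, -2.10 to -1.92 for ISL1, -1.58 to -1.29 for TBX2 and -12.95 to -2.40 for MYCN, whose KO counts all lie in KO replicate 2. All 8 members stayed lower in each. The levels of CPM have no alternative for filters, DESeq2, limma or the block. A KO library resolves no level below about 3 counts, which limits the size that can be given for a gene listed at 0 there.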

Other observations

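Factors that mark the mesenchymal state of neuroblastoma were also measured, and TWIST1 and ID1 were abundant in WT. TWIST1, a basic helix-loop-helix factor of mesenchyme, was at 160 ± 7.2 FPKM in WT (SD, n = 3), above GATA3, and at 0 in all KO libraries, at least 279-fold lower. ID1, an inhibitor of basic helix-loop-helix factors, was at 109 ± 3.7 FPKM in WT and had 5, 3 and 0 counts in KO, 45.7-fold lower. AEBP1 had 14.4 ± 2.1 FPKM in WT and 0, 11 and 0 counts in KO. It was at 0 there without KO replicate 2. With quantile normalization the log2 changes of AEBP1, SNAI2 and SMAD3, all called lower, were above 0. Of 10 tested factors of this list 6 were lower, 2 higher and 2 not called, beside 88.0% lower and 7.63% higher over all tested genes, with a median log2 change of -4.17, or -3.91 with genes at 0 set to their bound.

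The 2 higher genes were low in WT, NR3C1 at 0.379 FPKM and SIX4 at 0.0733. Each passed the filter, a mean of 1 FPKM over all 6 libraries, only through its KO values. Genes as low in WT with few or no KO counts were not tested, so these 2 calls are no result about the list. NR3C1, the glucocorticoid receptor, had 15, 33 and 24 counts in KO and was 7.83-fold higher in CPM, and SIX4 had 12, 25 and 32 counts and was 53.4-fold higher on 0.549 CPM in WT (edgeR adjusted p = 0.00056 and 9.8e-05).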
